A study of Mus musculus with 8 samples.

Results

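The integrin, laminin and syndecan genes were followed through c-Src induction in mouse embryonic fibroblasts (MEFs) that lack Csk. Members were chosen by name alone, as the probes whose gene name was that of an integrin alpha or beta subunit, a laminin chain or a syndecan, and 54 of the 55681 probes that are not controls matched, from 41 genes. Of these, 36 probes from 29 genes were well above background, by the scanner software's own flag, on both arrays of at least 1 time and are described here, out of 20853 genes tested. The 29 genes are 8 of 11 laminin chains, 11 of 18 integrin alpha subunits, 6 of 8 integrin beta subunits and all 4 syndecans. Where several probes of a gene passed, the brightest stands for the gene, and the other probes are given separately.

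All cells were Csk-/- MEFs carrying pBKT2-c-Src, a vector for doxycycline-inducible c-Src, so the 0 h cells share the Csk deletion and the vector. Total RNA was taken at 0 h, 6 h, 24 h and 72 h of induction with 1 µg/ml doxycycline and read on 1-colour Agilent arrays, 2 per time and 8 in all. The labels call the 2 arrays of a time duplicates without saying whether separate cultures stand behind them. The p-values therefore cover only the array-to-array spread, which may be technical. Whether the cells are a pool or a clone is not given in the sources used here. Csk was well above background on 0 of 8 arrays. Src stood at 149.3 and 166 at 0 h, 4186 and 4276 at 6 h, 3725 and 3765 at 24 h and 3093 and 3081 at 72 h, on a scale explained below. The groups hold no cells given doxycycline without the c-Src vector and no cells cultured for the later times without doxycycline. Each time also lay in its own row of 1 slide, so c-Src, doxycycline, time in culture and slide row cannot be told apart.

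Integrins are receptors made of an alpha and a beta chain that hold cells to the extracellular matrix and signal through talin, focal adhesion kinase and Src family kinases. Laminins are trimers of an alpha, a beta and a gamma chain and are a main component of basement membranes. Syndecans are membrane proteoglycans whose heparan sulfate chains bind laminins, fibronectin and growth factors and which act with integrins in cell adhesion. Csk phosphorylates the tail of Src family kinases and holds them inactive.

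The sequences of a few probes are printed first, because probes of 1 gene gave different results for Itga1 and Itgb1 and the sequence says which piece of the transcript each reading came from. All are as listed in the array files, 5′ to 3′, with coordinates on the mm9 build, and all letters are in lower case. The Itga1 probe that stands for the gene lies at chr13:115821387-115825525 on the minus strand and starts at base 683 of the transcript, and the other lies at chr13:115756765-115758419 on the minus strand and starts at base 3710. The genomic spans of 4139 and 1655 bases exceed the probe length of 60 bases, so each of these probes crosses a splice junction.
Itga1 standing probe: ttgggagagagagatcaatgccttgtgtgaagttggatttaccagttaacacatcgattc
Itga1 other probe: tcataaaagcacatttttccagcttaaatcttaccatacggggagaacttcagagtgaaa
The Itgb1 probe that stands for the gene lies at chr8:131250081-131255976 on the plus strand, starts at base 2631 of the transcript and also crosses a junction, with a span of 5896 bases. The other Itgb1 probe lies at chr8:131246349-131246408 on the plus strand and starts at base 1840.
Itgb1 standing probe: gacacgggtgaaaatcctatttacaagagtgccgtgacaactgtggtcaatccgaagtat
Itgb1 other probe: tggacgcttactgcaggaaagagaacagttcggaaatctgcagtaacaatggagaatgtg

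Levels below are scaled intensities. The authors' background-corrected signal of each array was divided by that array's 75th percentile and multiplied by 379.7, the geometric mean of the 8 percentiles. An intensity depends on the probe as well as on the transcript, so levels are compared between times of a probe and never between probes. Differences are on the log2 scale with the standard error (SE) of limma's fit, and a gene is said to rise or fall where limma's p-value, adjusted by the Benjamini-Hochberg method over all 20853 genes, was under 0.05. The comparisons with 0 h share the same pair of 0 h arrays. In bulk RNA, fewer cells of a type and less RNA per cell cannot be told apart.

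At 6 h 10 of the 29 genes (34.5%) differed from 0 h, 8 of them higher and 2 lower, where 17.6% of all tested genes did (10.3% higher and 7.23% lower). That count rests on single arrays: it fell in each fit that left out 1 of the 0 h or 6 h arrays. The share of all genes called fell in each of these fits too, so the drop is not particular to the members. At 24 h 21 genes (72.4%) differed, 12 higher and 9 lower, where 41.5% of all genes did (21.4% higher and 20.1% lower). At 72 h 19 genes (65.5%) differed, 9 higher and 10 lower, where 52.1% of all genes did (27.5% higher and 24.6% lower). With each array scaled by its median, which raised the median of all genes at 72 h to 0.183 on the log2 scale, the 72 h split was 11 higher and 7 lower. The median difference of the 29 genes was 0.08 at 6 h, 0.03 at 24 h and -0.02 at 72 h, against 0.005, -0.02 and 0.002 over all genes. Differences of at least 2-fold were seen in 0 members at 6 h, 6 (20.7%) at 24 h and 5 (17.2%) at 72 h, and in 2%, 5.55% and 8.69% of all genes. These counts depend on the background correction. With the normexp method, explained below, Lamc3 and Sdc3 at both times, Lamb2 at 24 h and Itgal at 72 h were under 2-fold. Itgb2 and Itgb7 stayed above it at both times, as did Itga1 at 24 h. The share of all genes at that size was not counted with normexp.

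**Figure D1:**
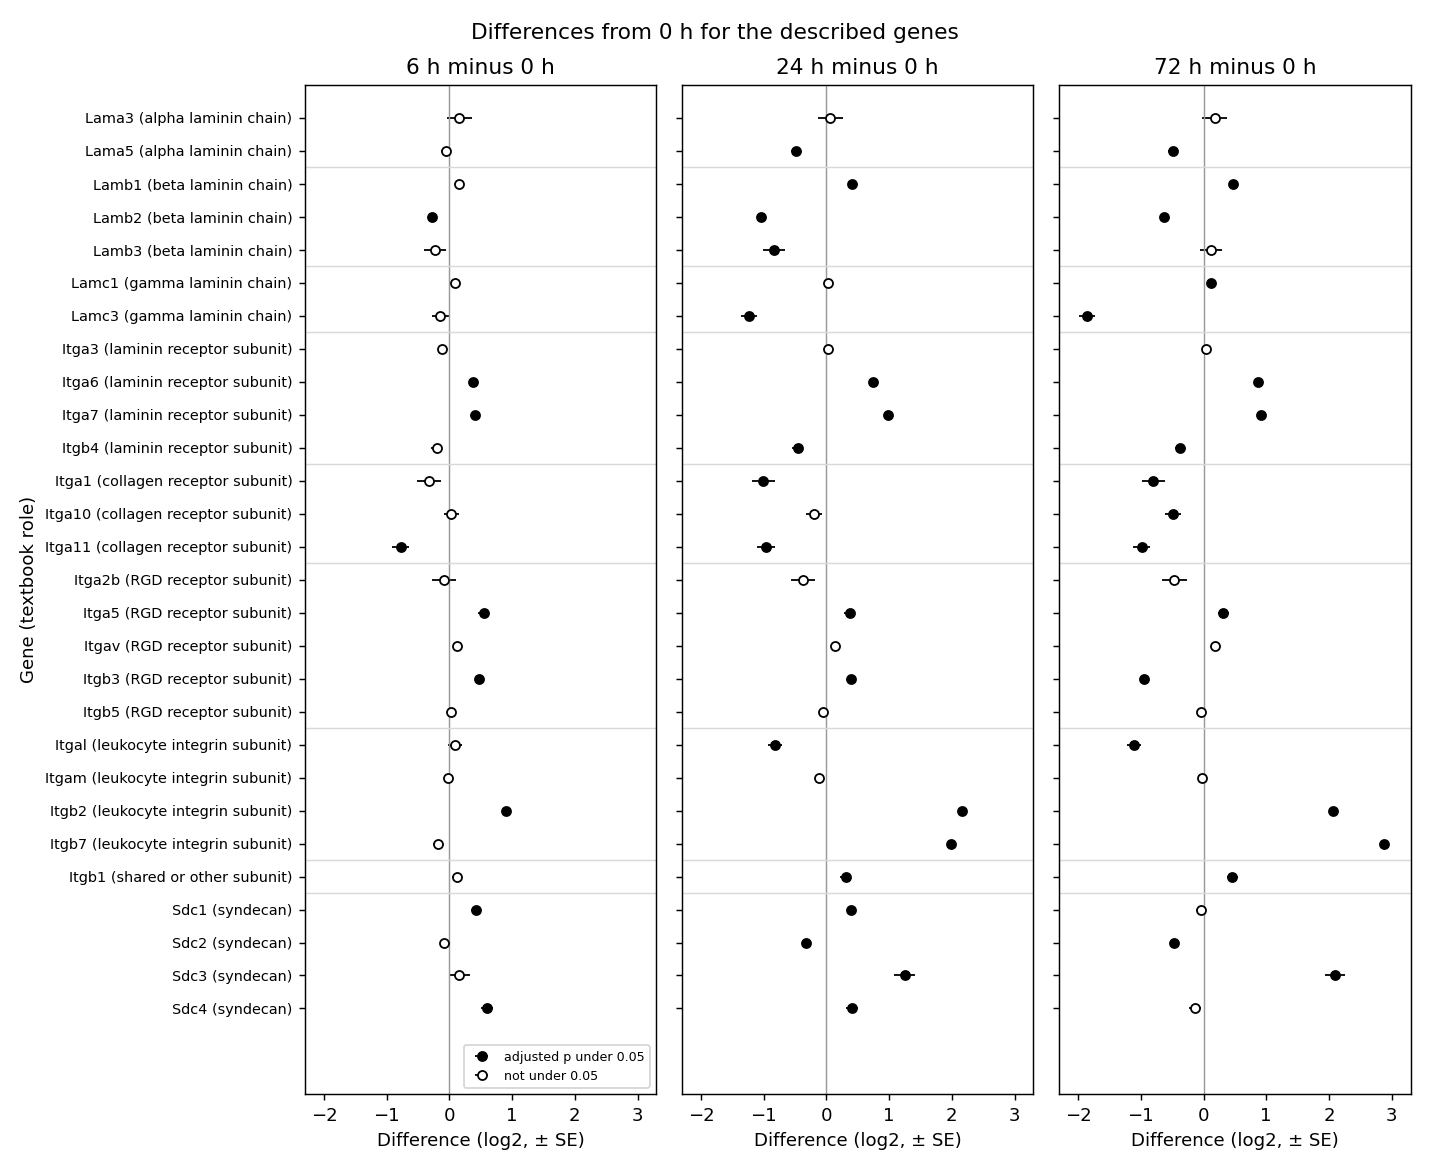
Difference from 0 h on the log2 scale, with its SE, of the described genes at 6 h, 24 h and 72 h, grouped by textbook role (2 arrays per time). Filled points have an adjusted p under 0.05. Itgb7, Itgb2 and Sdc3 lie far to the right at 24 h and 72 h, Lamc3 lies farthest to the left at both times, and the 3 collagen receptor subunits all lie left of 0 at 72 h.

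In all, 23 genes changed against 0 h at 1 or more times and 6 (Lama3, Itga2b, Itga3, Itgam, Itgav and Itgb5) did so at none. Itga5, Itga6, Itga7 and Itgb2 were higher at all 3 times, and Itga11 and Lamb2 lower at all 3. Itgb1, Itgb7, Lamb1 and Sdc3 rose at 24 h and 72 h, whereas Itga1, Itgal, Itgb4, Lama5, Lamc3 and Sdc2 fell at both. The calls of Itgb1 and Itgal were not shared by a second probe of the gene, described below. Sdc1 and Sdc4 were higher at 6 h and 24 h and did not pass the test at 72 h. Itgb3 was higher at 6 h and 24 h and lower at 72 h. A change at a single time was seen in 3 genes: Lamb3 fell at 24 h, Lamc1 rose at 72 h and Itga10 fell at 72 h.

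**Figure D2:**
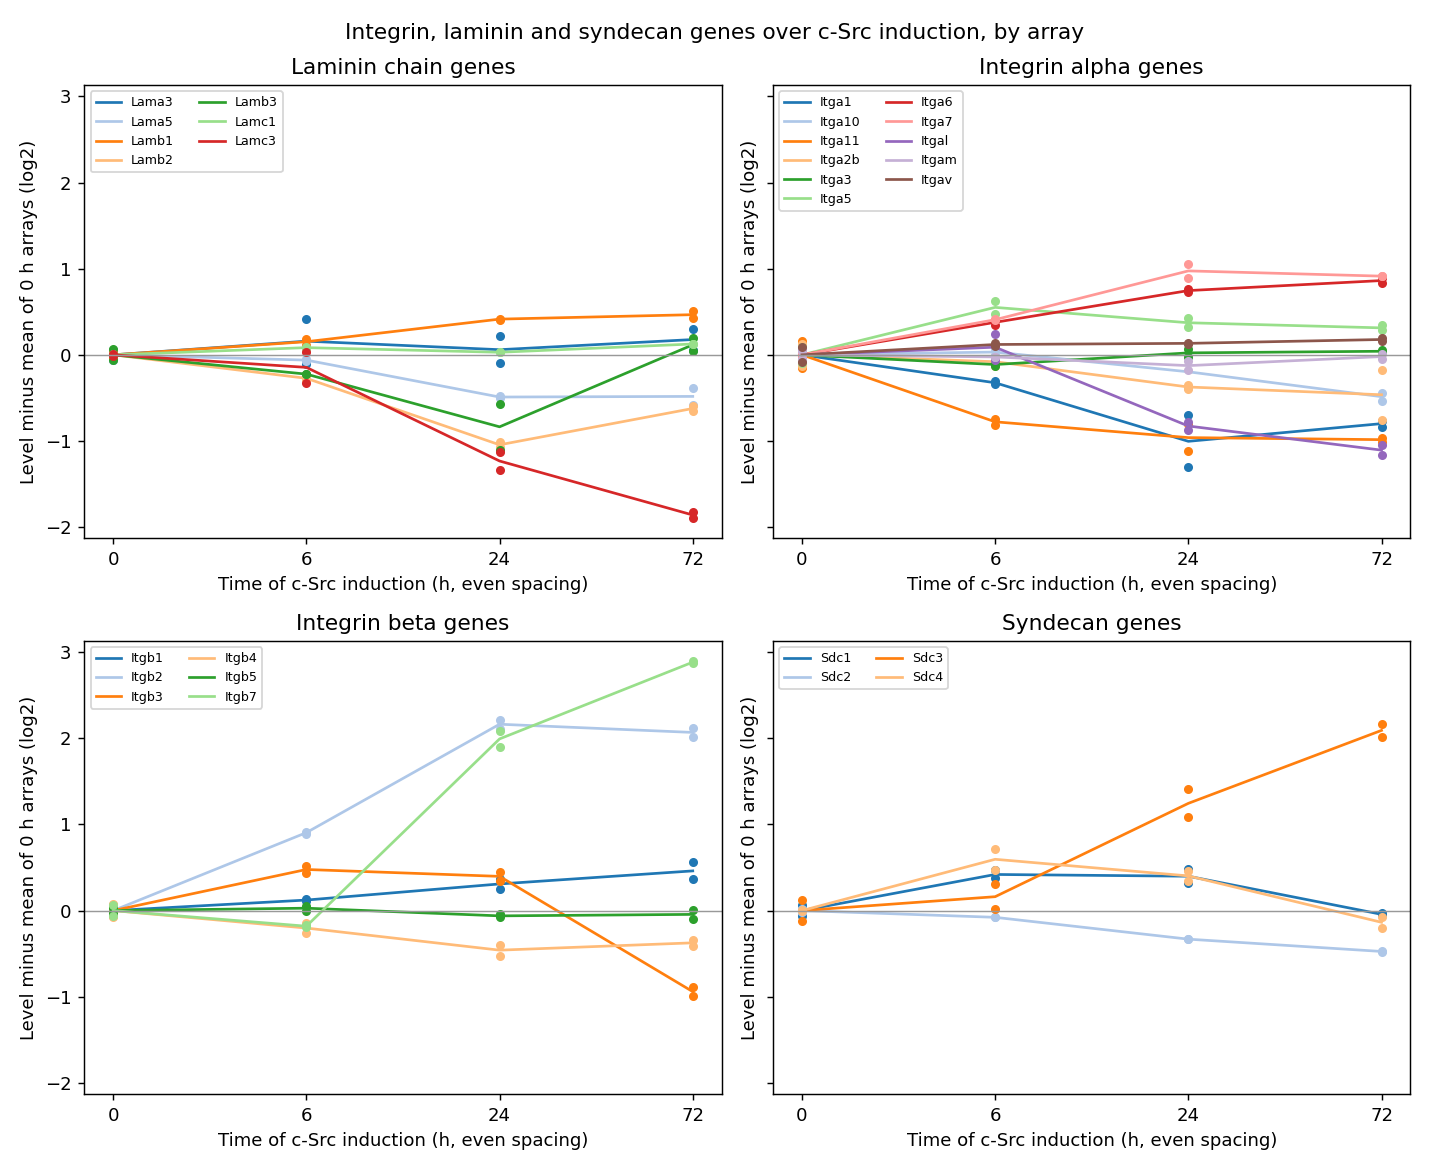
Level of the described genes on each array, as the log2 difference from the mean of the 0 h arrays, in 4 panels by family, with times on the horizontal axis evenly spaced. Each dot is an array and each line joins the means of the 2 arrays of a time. The integrin beta and syndecan panels spread widest upwards, with Itgb7 at 2.88 and Sdc3 at 2.09 at 72 h, and the laminin panel widest downwards, with Lamc3 at -1.86.

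Among the laminin chains, the ligands of several of these integrins, the clearest changes were falls of Lamc3 and Lamb2 and a rise of Lamb1. Lamc3, a gamma chain, had scaled intensities of 98.3 and 96.24 at 0 h, 77.46 and 99.82 at 6 h, 44.56 and 38.45 at 24 h and 26.19 and 27.43 at 72 h. Both arrays at 24 h, and both at 72 h, lay below all arrays of the earlier times. Its difference from 0 h was -1.23 ± 0.133 at 24 h (adjusted p = 0.00127) and -1.86 ± 0.133 at 72 h (adjusted p = 0.000208), which is 3.63-fold lower. With normexp background correction, which models the background of each spot and adds an offset of 50 before logs are taken, these falls were still called but smaller, -0.62 and -0.87. Lamb2, the beta chain of synaptic and glomerular laminins, read 2499 and 2492 at 0 h, 2098 and 2035 at 6 h, 1233 and 1187 at 24 h and 1584 and 1658 at 72 h. It was lowest at 24 h (-1.04 ± 0.048, 2.06-fold, adjusted p = 0.00014) and was 1.34-fold higher at 72 h than at 24 h (0.42 ± 0.048, adjusted p = 0.00554), still below 0 h (-0.62, adjusted p = 0.000256). Its smaller fall at 6 h (-0.27) lost its call without any 1 of the 0 h or 6 h arrays.

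Lamb1, the beta chain of the most widespread laminins, was 15050 and 14260 at 0 h, 16700 and 15880 at 6 h, 19470 and 19590 at 24 h and 19660 and 20840 at 72 h. It rose by 0.41 ± 0.056 at 24 h (adjusted p = 0.00265) and 0.47 at 72 h (adjusted p = 0.00118), or 1.38-fold. Lama5, the alpha chain that joins such beta and gamma chains in many adult basement membranes, went the other way. It read 15800 and 14570 at 0 h, 14400 and 14690 at 6 h, 10750 and 10860 at 24 h and 10130 and 11640 at 72 h. Its fall was -0.49 ± 0.079 at 24 h (adjusted p = 0.00508) and -0.48 at 72 h (adjusted p = 0.00401), and with median scaling neither passed the test (adjusted p up to 0.0601). Lamc1, the gamma chain of most laminins, stayed within 7241 to 7956 on the 8 arrays. Its rise at 72 h was 0.13 ± 0.039 (1.09-fold, adjusted p = 0.0395) and the call was lost in 11 of 19 alternative settings.

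Lama3 and Lamb3 encode chains of the laminin that anchors epithelium through hemidesmosomes. They did not move together. Lama3 lay between 59.18 and 84.87 on all 8 arrays and passed the test at no time (adjusted p 0.497 to 0.838). Lamb3 read 119.4 and 109.1 at 0 h, 97.85 and 97.62 at 6 h, 53.03 and 77.12 at 24 h and 130.4 and 117.4 at 72 h. Its arrays at 24 h were the lowest, and the fall of -0.84 ± 0.175 (adjusted p = 0.0125) was lost without 0 h replicate 1 (highest adjusted p over 19 alternatives 0.0623) and was -0.49 with normexp background correction. Itgb4, the integrin subunit that binds this laminin in hemidesmosomes as a partner of Itga6, fell at 24 h and is described with the receptors.

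Of the 4 laminin receptor subunits, Itga6 and Itga7 rose at every time and Itgb4 fell. Itga6, an alpha chain that pairs with Itgb1 or Itgb4, had intensities of 4273 and 4257 at 0 h, 5434 and 5651 at 6 h, 7240 and 7069 at 24 h and 7600 and 7912 at 72 h. Every array lay above all arrays of the earlier times, and the rise was 0.38 ± 0.046 at 6 h (adjusted p = 0.00628), 0.75 at 24 h (adjusted p = 0.000255) and 0.86 at 72 h (1.82-fold, adjusted p = 8.92e-05). Itga7, best known as the laminin receptor of skeletal muscle, read 3015 and 3097 at 0 h, 4049 and 4062 at 6 h, 5662 and 6370 at 24 h and 5753 and 5762 at 72 h. It rose by 0.41 ± 0.064 at 6 h (adjusted p = 0.0129), 0.97 at 24 h (1.97-fold, adjusted p = 0.000296) and 0.91 at 72 h (adjusted p = 0.0002). The Itga7 call at 6 h was lost without any 1 of the 0 h or 6 h arrays. Of 5 skeletal muscle markers only Des passed the filter, and it was not called at 6 h, 24 h or 72 h (adjusted p = 0.722, 0.116 and 0.129). The summed level of the list was 220.7 to 220.8 at 0 h, 210.2 to 228.8 at 6 h, 231.9 to 241.3 at 24 h and 232.7 to 236.4 at 72 h. The part of these markers in the rise of Itga7 was not tested.

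Itgb4 was 91.88 and 82.62 at 0 h, 79.07 and 72.48 at 6 h, 66.17 and 60.68 at 24 h and 65.65 and 68.82 at 72 h. It fell by 0.46 ± 0.082 at 24 h (adjusted p = 0.00709) and 0.37 at 72 h (adjusted p = 0.0117), and with median scaling neither passed the test. With normexp background correction the falls were 0.28 and 0.22. The 72 h call was also lost without 0 h replicate 1 or 72 h replicate 1 (highest adjusted p over 19 alternatives 0.267). Itga3, the other alpha chain of this class, varied only between 400.5 and 457.9 over the arrays and passed the test at no time. Of 10 epithelial markers 6 passed the filter, and at 72 h 2 were higher (Krt8 and Krt18) and 2 lower (Krt14 and Krt19), with Krt14 down by -1.93 (adjusted p = 0.000231). Of all genes 27.5% were higher and 24.6% lower at that time. Cdh1 and Epcam were well above background on 0 of 8 arrays. The summed level of that list was 2874 to 3265 at 0 h and 3515 to 3562 at 72 h, and its part in these results was not tested.

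The collagen receptor subunits are all alpha chains that pair with Itgb1. Of the 3 described, 1 was lower than at 0 h at 6 h, 2 at 24 h and all 3 at 72 h, where 7.23%, 20.1% and 24.6% of all genes were lower, and none was called higher. The remaining member of the class, Itga2, was above background on no array. Itga11, a receptor for fibrillar collagen in fibroblasts, had intensities of 124.9 and 154.9 at 0 h, 79.21 and 83.12 at 6 h, 79.83 and 63.96 at 24 h and 69.14 and 71.45 at 72 h. Both 0 h arrays were above all 6 later ones. The difference was -0.78 ± 0.14 at 6 h (adjusted p = 0.0182), -0.96 at 24 h (adjusted p = 0.00351) and -0.98 at 72 h (1.98-fold lower, adjusted p = 0.00228), and the 6 h call was lost without 0 h replicate 2 or either 6 h array. With normexp background correction the 3 differences were -0.47, -0.58 and -0.59, all called. Itga10, a collagen receptor of cartilage, read 211.9 and 213.7 at 0 h, 212.7 and 222.7 at 6 h, 211.2 and 163.2 at 24 h and 147.2 and 156.9 at 72 h. Its 72 h arrays were the lowest (-0.49 ± 0.121, adjusted p = 0.0189), and a second probe of the gene gave -0.52 (adjusted p = 0.00352 over 28609 probes). The 2 probes overlap, at chr3:96468377-96468436 and chr3:96468383-96468442, so the second reading is not separate support for the first. The standing probe's call was lost without either 0 h or either 72 h array (highest adjusted p over 19 alternatives 0.149).

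Itga1, a receptor for collagen of basement membranes, is read by the pair of probes printed above, and both were lower at 24 h and 72 h. The standing probe read 66.43 and 69.3 at 0 h, 53.57 and 54.83 at 6 h, 27.44 and 41.71 at 24 h and 38.07 and 39.96 at 72 h. Its difference was -1.004 ± 0.185 at 24 h (adjusted p = 0.00808) and -0.80 ± 0.185 at 72 h (adjusted p = 0.0146). The 72 h call was lost without either 0 h or either 72 h array (highest adjusted p over 19 alternatives 0.0669), and with normexp background correction the probe brightest under that setting gave -1.40. The other probe, which starts at base 3710 of the transcript, read 137.7 and 114.2 at 0 h, 84.86 and 84.63 at 6 h, 27.43 and 18.85 at 24 h and 9.075 and 13.22 at 72 h. It fell by 2.46 ± 0.245 at 24 h (adjusted p = 0.00117 over 28609 probes). At 72 h it was not well above background on either array and was at least 10.8-fold lower than at 0 h (adjusted p = 0.000233). For this bound, each 72 h array was given the smallest signal that passed its background flag, or the probe's own signal where higher. The difference between the 2 probes was 1.46 on the log2 scale at 24 h and was not tested.

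Fibroblast markers, genes of the cell type itself, changed beside these receptors. Of 11 such markers 7 passed the filter, 2 of them higher and 5 lower at 72 h, where 27.5% of all genes were higher and 24.6% lower. The higher ones were Vim (0.65, adjusted p = 0.000467) and Twist1 (0.54, adjusted p = 0.000362). Col3a1, a fibrillar collagen chain, fell by 1.31 at 72 h (adjusted p = 6.21e-05), and Pdgfra, a growth factor receptor of fibroblasts, by 1.19 (adjusted p = 0.000211). Pdgfrb had the largest fall of the list at that time, 1.62 (adjusted p = 0.000117). The summed level of the list was 136600 to 137800 at 0 h and 122300 to 125100 at 72 h. Thy1 was above background on 0 of 8 arrays, and Fap, Postn and Prrx1 did not pass the filter either. The part of these markers in the falls of the collagen receptor subunits was not tested.

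Receptors for ligands with an RGD motif, such as fibronectin and vitronectin, had no single direction. Itga5, the fibronectin receptor alpha chain, read 313.5 and 355.5 at 0 h, 464.1 and 515.6 at 6 h, 417.5 and 447.5 at 24 h and 406.4 and 423.3 at 72 h. All later arrays exceeded both 0 h arrays. It was highest at 6 h (0.55 ± 0.087, 1.47-fold, adjusted p = 0.0129) and stood at 0.37 at 24 h (adjusted p = 0.0185) and 0.31 at 72 h (adjusted p = 0.0272). Each of these calls was lost without 0 h replicate 1, and also without 6 h replicate 2 at 6 h, 24 h replicate 2 at 24 h and either 72 h array at 72 h (highest adjusted p over 19 alternatives 0.116). With normexp background correction the 72 h difference was 0.20. Itgb3, the beta chain of the vitronectin receptor and of the platelet fibrinogen receptor, read 232.6 and 241 at 0 h, 320.1 and 339.4 at 6 h, 324.2 and 300 at 24 h and 119.2 and 127.6 at 72 h. It rose by 0.48 ± 0.065 at 6 h (adjusted p = 0.00855) and 0.40 at 24 h (adjusted p = 0.0053), and fell by 0.94 at 72 h (adjusted p = 0.000188). The 6 h call was lost without 6 h replicate 2 (adjusted p up to 0.0562), and no alternative ended the other 2. At 72 h against 24 h Itgb3 fell by 1.34 ± 0.065 (2.53-fold, adjusted p = 0.000962), the largest fall in that step among the 29 genes.

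The alpha partners of Itgb3 did not pass the test at any time. Itga2b, the platelet partner, lay between 27.12 and 49.99 over the 8 arrays, with a difference of -0.46 ± 0.194 at 72 h (adjusted p = 0.0947). Itgav, the partner in the vitronectin receptor, lay between 778.3 and 949, with a difference of 0.18 ± 0.066 at 72 h (adjusted p = 0.0676). A second Itgav probe read 118.8 and 100.9 at 72 h, against 73.01 and 55.91 at 0 h, and was called at that time (0.78 ± 0.143, adjusted p = 0.00661 over 28609 probes). Itgb5, another partner of Itgav, kept within 11670 to 13000 on all arrays. Of 4 platelet markers 3 passed the filter. Ppbp was 1.89 higher at 6 h (adjusted p = 7.05e-05) and still 0.26 higher at 72 h (adjusted p = 0.0108), when Itgb3 was lower. Pf4 was not called at 6 h or 24 h (adjusted p = 0.131 and 0.596). At 72 h Pf4 was 1.03 lower (adjusted p = 0.000958) and Gp1bb 0.98 lower (adjusted p = 0.0411). The summed level of that list was 702 to 733.2 at 0 h, 2154 to 2164 at 6 h, 1653 to 1779 at 24 h and 695.8 to 749 at 72 h, and its part in the course of Itgb3 was not tested.

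Itgb1, the beta chain shared by the collagen, fibronectin and most laminin receptors, depended on the probe. The standing probe, in the coding sequence of the cytoplasmic tail, read 4665 and 4261 at 0 h, 4895 and 4812 at 6 h, 5735 and 5323 at 24 h and 6568 and 5734 at 72 h. That is a rise of 0.31 ± 0.086 at 24 h (adjusted p = 0.0332) and 0.46 at 72 h (1.38-fold, adjusted p = 0.00648). The 24 h call was lost in 10 of 19 alternative settings, among them the fits without either 0 h array. The other probe lay between 991.3 and 1090 on all 8 arrays, with a difference of -0.02 ± 0.053 at 72 h (adjusted p = 0.732 over 28609 probes).

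**Figure D3:**
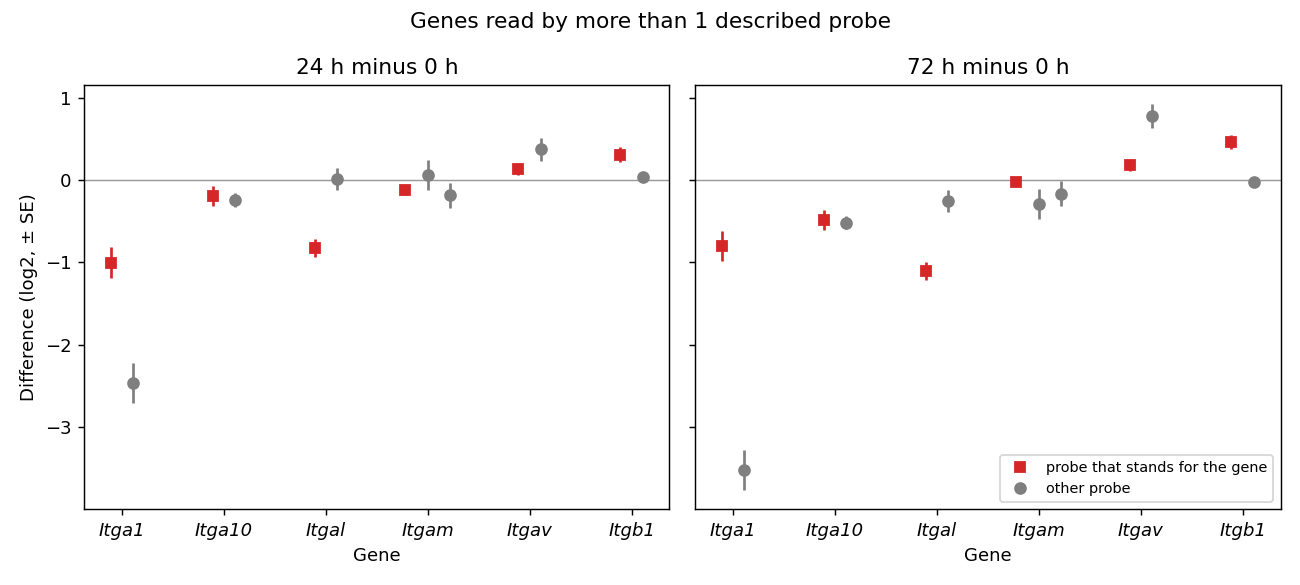
Difference from 0 h at 24 h and 72 h, on the log2 scale with its SE, for each probe of the 6 genes with more than 1 described probe. Squares are the probes that stand for the gene and circles the other probes. The probes of Itga10, which overlap in sequence, lie close together. Those of Itga1 are both below 0 but 1.46 apart at 24 h, and those of Itgb1, Itgal and Itgav differ in call. The Itga1 circle at 72 h was below background on both arrays, so its plotted value depends on signals that were not measured well.

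Itgb2 had the largest rise of the 29 genes at 24 h and Itgb7 the largest at 72 h, and both are beta subunits known from leukocytes. With normexp background correction their order at 24 h was reversed, at 1.78 for Itgb7 and 1.61 for Itgb2. At 72 h the fitted rise of Sdc3, described below, was 2.09 and that of Itgb2 2.07. Itgb7, which pairs with Itga4 or Itgae to home lymphocytes to the gut, read 264.5 and 241.9 at 0 h, 220.9 and 225.3 at 6 h, 943 and 1076 at 24 h and 1855 and 1881 at 72 h. Its 6 h arrays were the lowest and its 72 h arrays far above the rest. The rise was 1.99 ± 0.079 at 24 h (3.98-fold, adjusted p = 9.8e-05) and 2.88 ± 0.079 at 72 h (7.385-fold, adjusted p = 2.39e-05), with a further 0.89 between 24 h and 72 h (adjusted p = 0.00334). Itgb2, the common beta chain of the CD11 integrins, read 89.59 and 83.9 at 0 h, 163.7 and 161.1 at 6 h, 402.7 and 374.9 at 24 h and 350.2 and 377.7 at 72 h. It rose already at 6 h (0.91 ± 0.065, 1.87-fold, adjusted p = 0.0014, and 0.60 with normexp background correction) and reached 2.16 at 24 h (4.48-fold, adjusted p = 5.14e-05) and 2.07 at 72 h (adjusted p = 3.26e-05). These calls of Itgb2 and Itgb7 held in every one of 19 alternative settings.

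**Figure D4:**
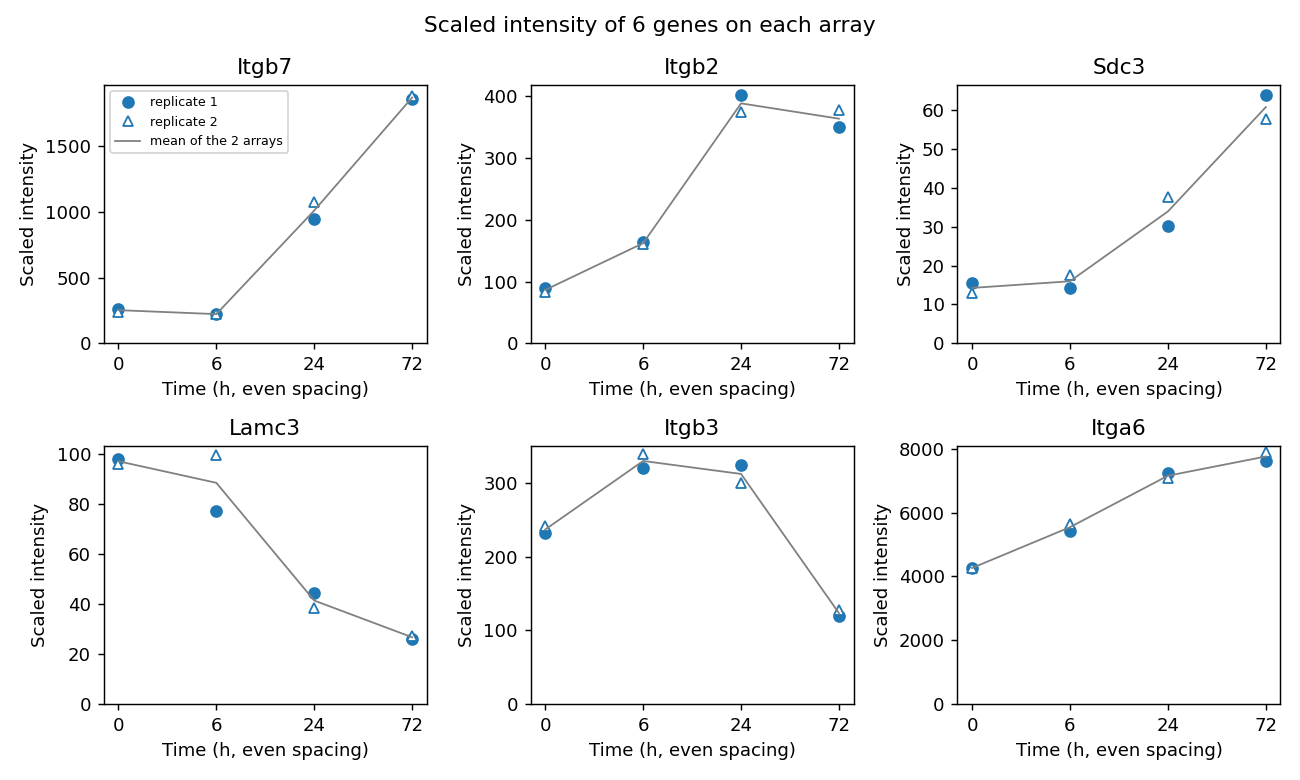
Scaled intensity on each array of Itgb7, Itgb2, Sdc3, Lamc3, Itgb3 and Itga6, each on its own linear axis that starts at 0, with times evenly spaced. Circles and triangles are the 2 replicates and the line joins their means. Itgb7 is at 220.9 and 225.3 at 6 h and climbs to 1855 and 1881 at 72 h, Itgb2 is already higher at 6 h, and Itgb3 ends at 119.2 and 127.6, below its 0 h level.

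No alpha partner of these beta chains was called higher, and for those below background no change could be read. Itga4 and Itgae, the partners of Itgb7, were well above background on 0 of 8 arrays, as were Itgad and Itgax, a pair of the Itgb2 partners. Itgal, another Itgb2 partner, read 47.38 and 43.7 at 0 h, 43.66 and 53.64 at 6 h, 26.5 and 24.85 at 24 h and 20.32 and 21.98 at 72 h. It fell by 0.83 ± 0.111 at 24 h (adjusted p = 0.00265) and 1.11 at 72 h (2.15-fold, adjusted p = 0.00063), and with normexp background correction by 0.28 and 0.35. This standing probe is listed for a sequence that had no match in RefSeq's table, so which Itgal transcript it reads is not settled. A second probe, listed for the RefSeq transcript, lay between 20.25 and 31.06 on the 8 arrays and passed the test at neither time (0.01 and -0.25). Another probe of that transcript was well above background on 0 of 8 arrays. The fall of Itgal therefore rests on the standing probe alone. Itgam, the last Itgb2 partner, lay between 5407 and 6335 on its standing probe, with a difference of -0.02 ± 0.06 at 72 h (adjusted p = 0.802). Its 2 other probes lay between 20.26 and 26.6 and between 29.08 and 42.62, and neither was called. How strongly Itgam was expressed cannot be read from these levels.

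Among leukocyte markers, Ptprc, the pan-leukocyte antigen, was well above background on 0 of 8 arrays, as were Emr1, Lyz2 and Fcgr1. Cd68, Csf1r, Cd14 and Cd3e passed the filter, 4 of the 9 on the array, and of these 2 were higher at 6 h, 3 at 24 h and 2 at 72 h, and 0 lower. Of all genes 10.3%, 21.4% and 27.5% were higher at these times. Cd68, a lysosomal protein of macrophages, was not well above background at 0 h and was at least 2.92-fold higher at 72 h (adjusted p = 0.000133). It passed the filter only through 24 h and 72 h, where it was high, so it could hardly have been counted as lower. At 6 h, where it is 1 of the 2 counted, only 1 of its arrays was well above background. Csf1r, the receptor of a macrophage growth factor, was higher on its standing probe by 0.88 at 6 h (adjusted p = 0.00257), 0.81 at 24 h (adjusted p = 0.000834) and 0.44 at 72 h (adjusted p = 0.00535). Another Csf1r probe stayed within 205.2 to 251.6 on all 8 arrays and a dimmer one within 12.05 to 33.8, so these rises were not shared by every probe. Cd14, a monocyte antigen, was called at 24 h alone (0.30, adjusted p = 0.0422), and Cd3e, of the T cell receptor complex, at no time (-0.03 at 72 h, adjusted p = 0.873). The summed level of the list was 663.2 to 728.5 at 0 h, 1009 to 1067 at 6 h, 1012 to 1026 at 24 h and 856.8 to 893.6 at 72 h. Its part in the rises of Itgb2 and Itgb7 was not tested.

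The 4 syndecans took 3 different courses. Sdc1, the syndecan of epithelia and plasma cells, read 2825 and 2589 at 0 h, 3736 and 3502 at 6 h, 3770 and 3374 at 24 h and 2644 and 2605 at 72 h. Sdc4, the syndecan of focal adhesions, read 667 and 661.1 at 0 h, 922.2 and 1092 at 6 h, 842 and 915.3 at 24 h and 630.2 and 579.5 at 72 h. In both genes the arrays at 6 h and 24 h lay above all arrays at 0 h and 72 h. Sdc1 was higher than at 0 h by 0.42 ± 0.077 at 6 h (adjusted p = 0.0192) and 0.40 at 24 h (adjusted p = 0.0094). Sdc4 was higher by 0.60 ± 0.096 at 6 h (1.51-fold, adjusted p = 0.0138) and 0.40 at 24 h (adjusted p = 0.02). At 72 h both were lower than at 24 h, Sdc1 by -0.44 (adjusted p = 0.0155) and Sdc4 by -0.54 (adjusted p = 0.0167). Of these calls, that of Sdc1 at 24 h held without each array in turn, and the others were lost without at least 1 array of the times compared (highest adjusted p over 19 alternatives 0.0952).

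Sdc3, the syndecan of the nervous system, read 15.49 and 13.01 at 0 h, 14.33 and 17.59 at 6 h, 30.07 and 37.66 at 24 h and 63.77 and 57.47 at 72 h. It was well above background on 7 arrays, at 0 h on 1 of 2, and its 24 h and 72 h arrays lay above all earlier ones. The rise was 1.25 ± 0.161 at 24 h (adjusted p = 0.00236) and 2.09 ± 0.161 at 72 h (adjusted p = 0.000259), and no fold is given because 1 of the 0 h arrays gave only a limit. With normexp background correction the rise was still called but smaller, 0.36 at 24 h and 0.76 at 72 h. Of 5 neural markers 3 passed the filter, and the summed level of the list was 1510 to 1540 at 0 h, 1720 to 1857 at 6 h, 1756 to 1849 at 24 h and 1117 to 1131 at 72 h. Of these Tubb3, a neuronal tubulin, was higher by 0.32 at 24 h (adjusted p = 0.0127), when Sdc3 was also higher, and lower by -0.46 at 72 h (adjusted p = 0.00243). The part of these markers in the rise of Sdc3 was not tested. Sdc2, the syndecan of fibroblasts and other mesenchymal cells, read 2550 and 2499 at 0 h, 2389 and 2394 at 6 h, 2005 and 2007 at 24 h and 1821 and 1813 at 72 h. Each later time lay below the one before it, with a fall of 0.33 ± 0.039 at 24 h (adjusted p = 0.00175) and 0.47 at 72 h (1.39-fold, adjusted p = 0.000326). With median scaling the 24 h fall of Sdc2 was lost (adjusted p = 0.132).

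The promoters of Sdc1 and Sdc4 are shown because in both genes the arrays at 6 h and 24 h lay above all arrays at 0 h and 72 h. They are the 250 bases before the annotated start from RefSeq's table on GRCm38.p6, with every GC box (GGGCGG on either strand) in capitals.
Sdc1, chr12:8771146-8771395, plus strand: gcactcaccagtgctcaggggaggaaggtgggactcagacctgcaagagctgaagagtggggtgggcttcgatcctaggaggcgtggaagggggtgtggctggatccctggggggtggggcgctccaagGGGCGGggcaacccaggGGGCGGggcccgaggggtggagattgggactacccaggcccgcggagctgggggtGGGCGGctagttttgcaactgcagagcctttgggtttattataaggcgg
Sdc4, chr2:164443189-164443438, minus strand: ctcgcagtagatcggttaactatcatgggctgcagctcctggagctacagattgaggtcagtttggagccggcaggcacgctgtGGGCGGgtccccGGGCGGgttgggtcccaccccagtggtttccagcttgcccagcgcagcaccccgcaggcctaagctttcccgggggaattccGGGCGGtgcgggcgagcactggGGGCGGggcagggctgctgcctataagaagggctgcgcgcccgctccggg
The Sdc1 window holds 3 GC boxes and the Sdc4 window 4. Promoters were found for 18 of the 29 genes, and 10 of these 18 held a GC box, where 32.7% of 32851 promoter windows of the same length did. The TEAD motif (GGAATG) was found in 3 of the 18 (Itga10, Itgb1 and Lamb3) and in 12.6% of all windows. The AP-1 motif (TGANTCA) and the CArG box of SRF were found in 0 of the 18 and in 6.75% and 1.47% of all windows. All motifs were searched on both strands, and matches are given as a description.

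Between later times, 12 of the 29 genes differed at 24 h against 6 h (6 higher and 6 lower), where 26.2% of all genes did (12.6% higher and 13.6% lower). At 72 h against 24 h 9 differed (4 higher and 5 lower), where 21.6% of all genes did (10.8% higher and 10.9% lower). With median scaling the split at 72 h against 24 h was 4 higher and 2 lower. The count of 9 fell without 24 h replicate 1 and without either 72 h array, and the share of all genes called fell in these fits too. From 6 h to 24 h the genes that rose were Itga6, Itga7, Itgb2, Itgb7, Lamb1 and Sdc3. Those that fell were Itga1, Itgal (on its standing probe only), Lama5, Lamb2, Lamc3 and Sdc2. The calls of Itga1, Lama5, Lamb1 and Sdc2 in this step were lost without at least 1 array, and the other 8 were not. At 72 h Itgb7, Lamb2, Lamb3 and Sdc3 were higher than at 24 h, and Itgb3, Lamc3, Sdc1 and Sdc4 were among the lower ones. The calls of Itgb3, Itgb7 and Lamb2 in this step held in every one of 19 alternative settings.

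Partners of these genes were read from 4 lists of related genes, of which 63 of 71 genes were tested. Over all lists 18 were higher and 4 lower at 6 h (34.9%), 18 higher and 22 lower at 24 h (63.5%), and 23 of each at 72 h (73%), where 17.6%, 41.5% and 52.1% of all genes changed. The 6 h count of 22 fell without any 1 of the 0 h or 6 h arrays, and the share of all genes called fell in these fits too. With no filter on dim probes the count was 11, and 2.41% of all genes were called. Of 13 basement membrane partners and other matrix ligands, 1 was higher and 0 lower at 6 h, 2 higher and 8 lower at 24 h, and 2 higher and 10 lower at 72 h. Of all genes 7.23%, 20.1% and 24.6% were lower at these times. Spp1 (osteopontin), an RGD ligand of Itgav and Itgb3, and Nid1, a nidogen, were the 2 that rose at 24 h, Nid1 by 0.98 (adjusted p = 0.000148; named after its values were seen). Spp1 stood at 1901 and 1695 at 0 h, 5903 and 6172 at 6 h, 26650 and 26840 at 24 h and 14780 and 14030 at 72 h, and was 14.9-fold higher at 24 h than at 0 h (3.90 ± 0.069, adjusted p = 1.34e-05). Nid2, the other nidogen, a linker of laminin and collagen networks, fell by 1.73 at 24 h (adjusted p = 0.000153) and 2.32 at 72 h (4.98-fold, adjusted p = 4.06e-05). Fras1, a basement membrane protein of epithelium, was not well above background on either array at 72 h and was at least 9.15-fold lower than at 0 h (adjusted p = 0.000402). Tnc (tenascin C), a matrix ligand of several integrins, read 13.72 and 16.47 at 72 h, against 57.28 and 85.06 at 0 h. It was lower at 72 h (adjusted p = 0.00121), and no fold is given because 1 of the 72 h arrays was not well above background. The median difference of this list was -0.68 at 72 h, against 0.002 over all genes.

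Of 21 integrin adaptors and activators, 9 were higher and 1 lower at 6 h (47.6%), 7 higher and 3 lower at 24 h (47.6%), and 11 higher and 5 lower at 72 h (76.2%). Of all genes 17.6%, 41.5% and 52.1% changed at these times, so the 24 h share was near that of all genes. Vcl (vinculin), which ties talin to actin, was 1.90-fold higher at 6 h (0.93 ± 0.047, adjusted p = 0.000423) and 1.59-fold higher at 72 h (adjusted p = 0.000203). Zyx (zyxin), an actin-binding protein of focal adhesions, was 1.88-fold higher at 6 h (adjusted p = 0.000918) and 1.39-fold higher at 72 h (adjusted p = 0.00129). Tns3, a tensin that binds integrin tails, was lower by -0.66 at 6 h (adjusted p = 0.00712) and -1.29 at 72 h (adjusted p = 0.00016). Parvb, a partner of integrin-linked kinase, was not well above background at 24 h or 72 h and was at least 2.78-fold lower at 72 h than at 0 h (adjusted p = 9.3e-05).

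Of 11 other receptors and membrane partners, 4 were higher and 1 lower at 6 h (45.5%), 5 higher and 5 lower at 24 h (90.9%), and 5 higher and 4 lower at 72 h (81.8%), where 17.6%, 41.5% and 52.1% of all genes changed. Cd44, a hyaluronan receptor, was higher by 0.72 at 6 h (adjusted p = 0.00205) and 0.93 at 24 h (1.91-fold, adjusted p = 0.000261). Cd47, a membrane partner of Itgb3, rose by 0.81 at 72 h (1.75-fold, adjusted p = 0.000135), a time at which Itgb3 was lower. Cd82, a tetraspanin that associates with integrins, was 1.01 lower at 72 h (adjusted p = 0.000136). Bcam, a receptor for Lama5, was not well above background at 24 h or 72 h and was at least 1.83-fold lower at 72 h than at 0 h (adjusted p = 0.00196). Lama5 itself was lower by 0.48 at that time.

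Of 18 syndecan partners and heparan sulfate enzymes, 4 were higher and 2 lower at 6 h (33.3%), 4 higher and 6 lower at 24 h (55.6%), and 5 higher and 4 lower at 72 h (50%). The share at 72 h was near the 52.1% of all genes that changed, and the other shares stand beside 17.6% and 41.5% of all genes. Sdcbp2, a relative of the adaptor syntenin, which binds syndecan tails, was 3.00-fold higher at 72 h (1.58 ± 0.128, adjusted p = 0.000302). Sulf1, which removes sulfate groups from heparan sulfate, fell by 0.49 at 6 h (adjusted p = 0.00753) and 1.46 at 72 h (2.75-fold, adjusted p = 5.94e-05). Hs6st1, a heparan sulfate sulfotransferase, fell by 0.89 at 72 h (adjusted p = 0.0005). Hs3st1, another sulfotransferase, was higher by 0.74 at 6 h (adjusted p = 0.00469) and lower by -0.64 at 72 h (adjusted p = 0.00143).

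**Figure D5:**
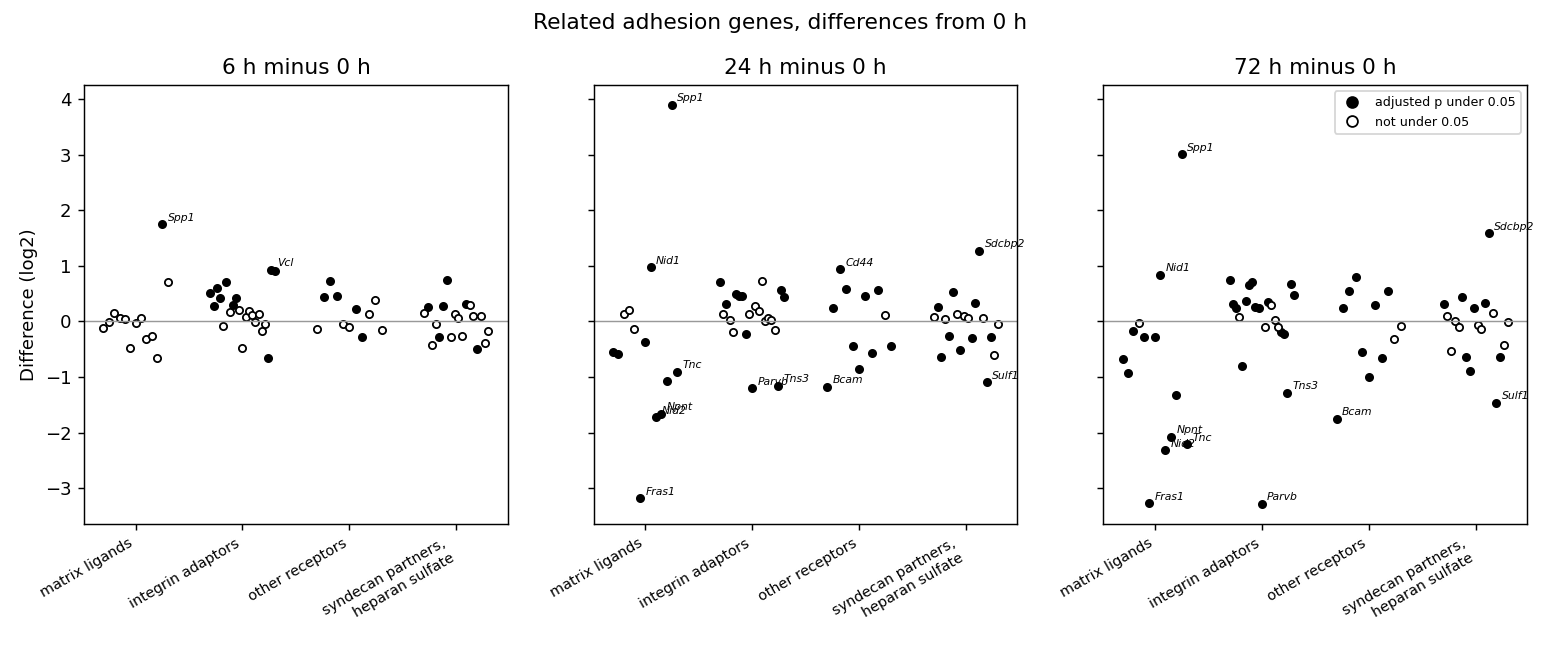
Difference from 0 h on the log2 scale of each of 63 related genes at 6 h, 24 h and 72 h, in 4 lists. Filled points have an adjusted p under 0.05, and some genes with large differences are named. Most matrix ligands lie below 0 at 24 h and 72 h apart from Nid1 and Spp1, which reaches 3.90 at 24 h. Fras1 at 72 h, and Parvb and Bcam at 24 h and 72 h, were not well above background and are plotted at their fitted values.

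The other 12 genes did not pass the filter and get no difference. Itga2, Itga4, Itga8, Itga9, Itgad, Itgae, Itgax, Lama1 and Lama4 were well above background on 0 of 8 arrays, Itgb6 and Itgb8 on 1 array each and Lama2 on 2. The 15 probes of these genes read 2.007 to 20.91, where the lowest signal well above background was 10 to 15.01 depending on the array. A signal this low is a limit of the array and does not show that a transcript was absent.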

How the data were processed

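Per the labels' protocols, total RNA (500 ng) was labelled with Cy3 and hybridised to 1-colour arrays. Per the file headers, the authors quantified the scans with Feature Extraction 10.5.1.1 (mm9 build), and each spot has a processed signal, a linear background-corrected intensity. Version 10.7.3.1 is named instead in the submitters' processing notes. The authors' series-wide table repeats these intensities in rounded form (largest difference 0.497%, array medians 12.9 to 15.7).

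The log2 signal of 59305 non-control spots was scaled by subtracting each array's 75th percentile (370.3 to 393). Outlier spots were left out and spots of a probe averaged. Probes flagged well above background on both arrays of 1 or more times were kept (28609 of 55681). The flag was set for 49.94% to 54.73% of an array's spots, 0 were saturated, and the number of arrays limits the precision. Replicate arrays correlated across genes at 0.9964 to 0.9975. Limma 3.58.1 (R 4.3.3) fitted 4 means to 8 arrays, with 4 residual degrees of freedom and a median SE of 0.075. Simulated data made from these arrays, for 6 h against 0 h alone, had 200 of 20853 genes changed. In these it called 81 of 100 genes changed 2-fold and 54 of 100 changed 1.5-fold, and 4 of 20653 unchanged genes. The data had far more calls (3663 at 6 h), and the adjusted p depends on that share, so these figures need not hold for the fits reported.

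Same-numbered arrays shared a slide column, and their deviations correlated at 0.05397 to 0.1691 between times, so the numbers were not taken to pair samples. Of 54 member probes 50 matched a RefSeq accession, all with the same symbol. Members, lists and roles were chosen with earlier results of these data known. The described members are named, apart from 1 that is counted but not reported here, with values on each array for those called against 0 h, plus up to 4 called genes of each related list by largest difference, and Src and Csk. The marker genes given with values were picked after those were seen. Protein sequences were not used here. Motifs and sequences were handled in Python 3.11.15, and figures drawn with pandas 2.3.3 and matplotlib 3.10.9. The alternatives were other background corrections, scalings, probe filters and probe choices, a common floor, the deposited table, fewer arrays, each array left out and a replicate block.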

Additional observations from a re-analysis of the deposited data

Results flagged for a closer look

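Itgb3 stood out because its difference from 0 h changed sign between later times. It was -0.94 at 72 h and 0.40 at 24 h, and the direct test of 72 h against 24 h gave -1.34 (limma, adjusted p = 0.000962). Both arrays at 72 h (119.2 and 127.6) lay below both at 0 h (232.6 and 241), and both at 24 h (324.2 and 300) lay above them.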

How the results depend on the processing

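Each of 71 calls was recomputed under 19 alternatives, and 1188 of 1345 results kept the call, 157 lost it and 0 changed sign. Of the calls, 39 held in every alternative that tested the gene, namely 1 of 10 at 6 h, 14 of 21 at 24 h and 13 of 19 at 72 h against 0 h, 8 of 12 at 24 h against 6 h and 3 of 9 at 72 h against 24 h. The 6 h count of 10 became 1 with no filter on dim probes (which tests 36161 genes), 5 with only the arrays of the 2 times, and 2 to 11 with an array left out. The 72 h against 24 h count of 9 became 3 with no filter, 3 with only those arrays, and 3 to 9 with an array left out. Leaving out an array gave 18 to 22 at 24 h, 15 to 19 at 72 h and 8 to 11 at 24 h against 6 h. The replicate block kept 71 of 71 calls and gave counts of 10, 21, 20, 12 and 9, and an arm left with 1 array was assumed to vary like the others. Median scaling moved the median of all genes to 0.0573, 0.133 and 0.183 at 6 h, 24 h and 72 h and the share of all calls that were higher to 77%, 74.7% and 75.1%, against 58.8%, 51.5% and 52.7%, and 13 member calls were lost, among them the falls of Lama5, Itgb4 and Sdc2 at 24 h. Quantile normalization moved the 6 h share to 47%. Over all genes the 6 h count was 3663, against 871 with no filter and 2288 with median scaling. Normexp background correction moved 21 of the 71 called log2 differences by over 1.5 times, 20 of them to a smaller size, in Itga1, Itga5, Itga11, Itgal, Itgb2, Itgb4, Lamb3, Lamc3 and Sdc3. Related genes called at 6 h numbered 22, against 11 with no filter and 13 to 22 with an array left out.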
